A study of Mus musculus with 22 samples.

Results

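Blocking autophagy at its last step with bafilomycin A1 (Baf A1) and lowering the early autophagy gene Atg5 were compared in mouse microglia, by the difference of the 2 effects for every gene. The Baf A1 effect was LPS+Baf A1 minus LPS, the knockdown effect was LPS+siAtg5 minus LPS+dNC, and the difference was the first minus the second, all on log2(FPKM + 1). FPKM is a fragment count corrected for transcript length and library size. Of the 15725 symbols in the table, 11070 had at least 1 FPKM in at least 3 of the 22 libraries and were tested. A gene is named as called when limma's Benjamini-Hochberg adjusted p was under 0.05, and a gene called in both effects was moved alike when the signs matched and moved opposite ways when they did not. The comparison rests on 16 of the 22 libraries, and no library enters both effects.

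The cells were primary microglia shaken off mixed glial cultures from the cortex of newborn C57BL/6J mice aged 1 to 3 days. All cells received 100 ng/ml lipopolysaccharide (LPS), the endotoxin of Gram-negative bacteria and ligand of Toll-like receptor 4, for 24 h. The 4 groups were LPS alone (3 libraries), LPS with 10 nM Baf A1 (5), LPS in cells transfected for 48 h with 50 nM Atg5 siRNA (siAtg5, 5) and LPS with dNC (3), also listed with a 48 h transfection. The sources do not spell out the label dNC, although the protocol names NC siRNAs. The 6 remaining libraries, LPS with CLA, entered only the estimate of spread. Every group therefore carried LPS, no group went without it, and the LPS and LPS+Baf A1 cells are not stated to have been transfected. Whether the libraries of a group stem from separate cultures is not stated, so the p-values reflect the spread between these libraries, which may be technical.

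Autophagy encloses cytoplasm in a double membrane and delivers it to the lysosome. Atg5, joined to Atg12 and bound to Atg16l1, is needed to attach LC3 and GABARAP proteins to lipid, an early step in closing that membrane. Bafilomycin A1 inhibits the V-ATPase, the pump that acidifies lysosomes, so autophagosomes form but their cargo is not degraded, and all other lysosomal degradation is affected too. In macrophages and microglia, autophagy is known to restrain the inflammasome and the release of interleukin-1, while lysosomes also handle cholesterol, iron and receptor turnover.

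Some libraries and columns stood apart. LPS replicate 3 and LPS+dNC replicate 1 differed from the other libraries of their groups by an SD across genes of 0.273 to 0.284 and 0.351 to 0.388 on the log2 scale, against 0.158 and 0.187 between the 2 remaining libraries of each group. The median FPKM per library was 4.53 to 4.8 with siAtg5 and 2.62 to 3.25 in the other 17 libraries. The 3 LPS+dNC columns carry no unit in their header while the other 19 do, and in 234 tested genes all 3 LPS+dNC libraries lay at least 2-fold outside the range of the other 19, against 6 such genes for LPS, 11 for LPS+Baf A1 and, with the same measure for its 5 libraries, 749 for LPS+siAtg5 (729 of them higher). LPS+siAtg5 minus LPS is given beside many of the knockdown effects; it shares its control libraries with the Baf A1 effect. Whether a difference in quantification set the LPS+dNC values apart was not tested. FPKM values carry no depth, so counting error is unknown.

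Both treatments changed a large share of the transcriptome, and most genes that both changed moved alike. Baf A1 changed 6395 genes (57.8%), of which 3619 (32.7%) were higher and 2776 (25.1%) lower. Knockdown changed 8988 genes (81.2%), 6594 higher (59.6%) and 2394 lower (21.6%). The effects were both called in 5177 genes (46.8%), of which 3448 (31.1% of those tested) moved alike and 1729 (15.6%) opposite ways. Of the genes that moved alike, 2405 (21.7%) rose in both and 1043 (9.42%) fell in both. Baf A1 raised and knockdown lowered 628 (5.67%), and Baf A1 lowered and knockdown raised 1101 (9.95%). Baf A1 alone changed 1218 genes (11%), knockdown alone 3811 (34.4%), and 864 (7.8%) were called in neither. Both effects reached 2-fold in 73 genes raised by both, 93 lowered by both, 27 raised by Baf A1 and lowered by knockdown and 9 of the reverse class. In bulk RNA, fewer cells of a type and less RNA per cell cannot be told apart.

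The shares read differently for genes that rose and genes that fell. Among the 3619 genes higher with Baf A1, knockdown raised 66.5%, which is close to the 66.1% it raised among the 4675 genes with no Baf A1 call. That reference share is not neutral. The siAtg5 libraries held 10752 to 10908 genes at 1 FPKM or more, against 9112 to 9571 in the other 17. Genes that passed the filter through siAtg5 alone can lift the 66.1%, and the 59.6% raised over all genes. How many did so was not counted. Among the 2776 genes lower with Baf A1, knockdown lowered 37.6%, against 15.5% among genes with no Baf A1 call, and it raised 39.7%. Across genes, which are not independent replicates, the effects correlated with Pearson's r = 0.215 and Spearman's rho = 0.211. The knockdown effect was the wider one, with an SD across genes of 0.879 against 0.462 for Baf A1, 2034 genes at least 2-fold higher (18.4%) and 530 lower (4.79%) against 223 (2.01%) each way, and its median over all genes was 0.34 against 0.04.

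The difference of the effects was called in 8053 genes (72.7%), 2261 higher with Baf A1 than with knockdown (20.4%) and 5792 lower (52.3%), at least 2-fold in 557 (5.03%) and 1967 (17.8%). It was not called in 1022 of the 2405 genes raised by both (42.5%) and in 447 of the 1043 lowered by both (42.9%). It was called in all 628 and all 1101 genes of the opposite classes. Scaling moves this split: of the calls in the difference, 28.1% were higher as deposited, 44.5% after median-of-ratios scaling and 51.1% after quantile normalization, and of the knockdown calls 73.4%, 54.1% and 49.1% were higher. The median difference over all genes went from -0.302 to -0.073 and 0.014, so gene lists are given beside the median of all genes.

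**Figure D1:**
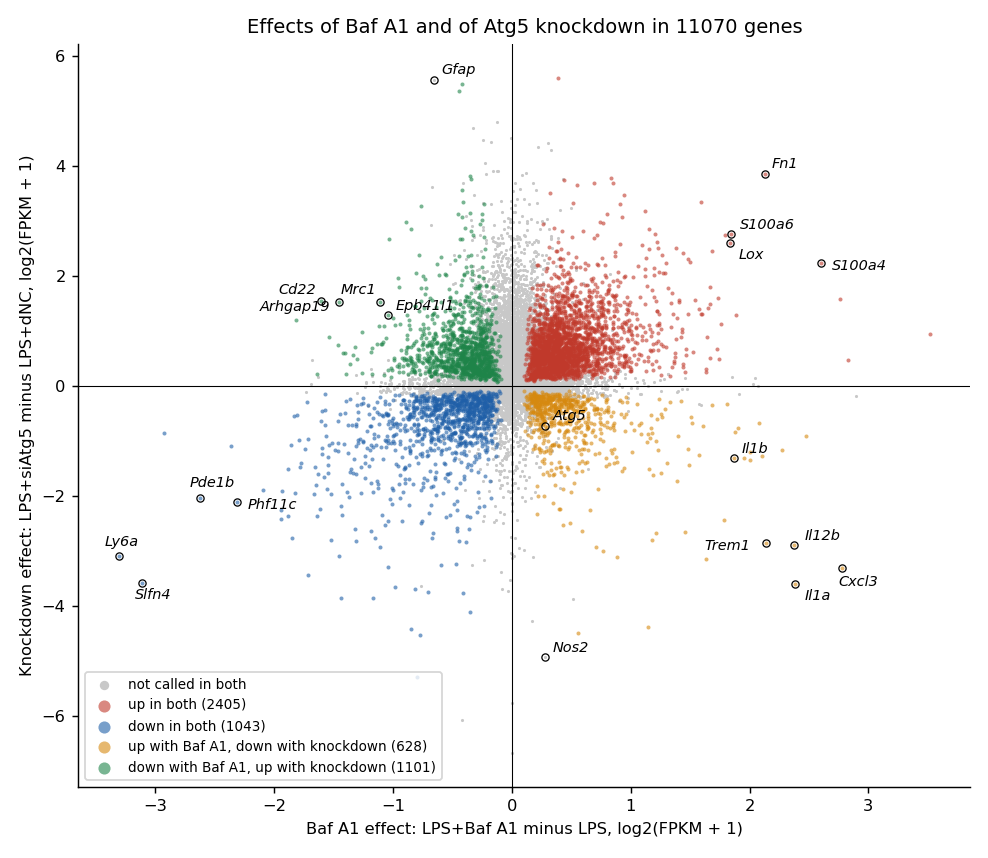
Each point is 1 of 11070 genes, with the Baf A1 effect on the x axis and the Atg5 knockdown effect on the y axis, both as differences of log2(FPKM + 1), coloured by the 4 classes. Slfn4 and Ly6a sit in the lower left (both lower), Fn1 and S100a4 in the upper right (both higher), and Cxcl3 and Il1a in the lower right (higher with Baf A1, lower with knockdown).

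The opposite classes depended on the control of the knockdown. Against LPS, siAtg5 changed 8502 genes (76.8%), 6777 higher (61.2%) and 1725 lower (15.6%). It was called in the same direction in 2211 of the 2405 genes raised by both (91.9%) and in 783 of the 1043 lowered by both (75.1%). Of the 628 genes raised by Baf A1 and lowered by knockdown, 123 (19.6%) kept that direction against LPS, while 340 were called in the other direction. Of the 1101 genes of the reverse class, 500 (45.4%) kept it and 192 turned. The median LPS+dNC level exceeded LPS by 0.69 in the first opposite class and lay 0.42 lower in the second (median of -0.42), against 0.0 over all genes. Over all 8988 knockdown calls, 71% were called the same way against LPS and 854 the other way.

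**Figure D2:**
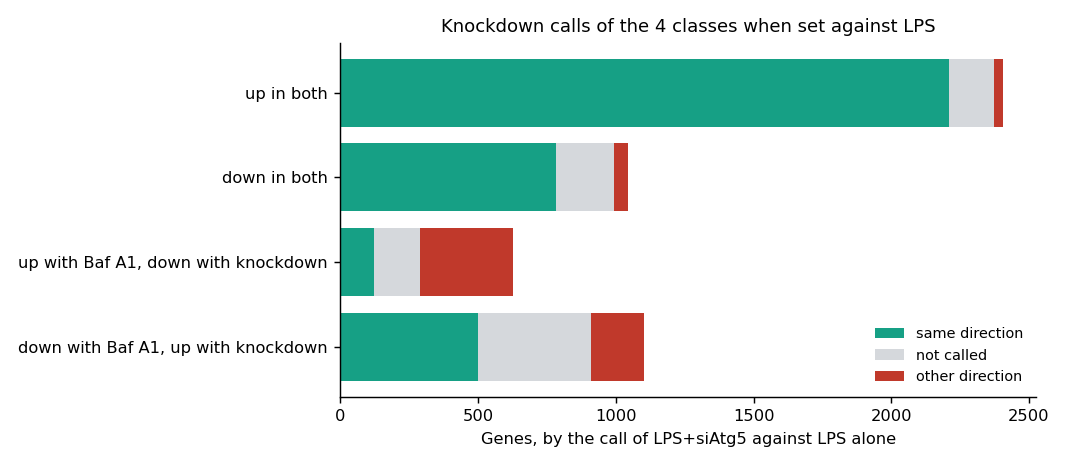
Bars give the number of genes in each of the 4 classes, split by whether LPS+siAtg5 against LPS alone was called in the same direction as against LPS+dNC, not called, or called in the other direction. The same direction fills most of the bars of both alike classes (2211 and 783 genes), and 340 of 628 genes raised by Baf A1 and lowered by knockdown are called in the other direction.

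Atg5 itself was lower in the knockdown libraries, which checks their label. It stood at 24.3, 21.4 and 21.4 FPKM with LPS+dNC and at 13.3, 13.5, 12.9, 12.6 and 13.2 with LPS+siAtg5, a knockdown effect of -0.73 (SE 0.048). In the LPS libraries it was 20.4, 20.1 and 19.8, and with Baf A1 25.6, 23.5, 24.8, 24.4 and 24.9, an effect of 0.28 (SE 0.048). The siAtg5 libraries lay below all others, the Baf A1 libraries lay above all LPS libraries, and the difference was 1.01 (SE 0.068), adjusted p = 1.73e-11.

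The autophagy machinery had no common direction. Of 15 tested genes that attach LC3 and GABARAP proteins to lipid, Atg5 included, 4 rose in both and 2 fell in both. The siRNA target Atg5 was among the 3 that rose with Baf A1 and fell with knockdown (1 with LPS as the control). These counts stand beside 21.7%, 9.42% and 5.67% of all genes. Gabarapl1, one of those lipid-attached proteins, rose in both, by 0.53 and 0.88 (adjusted p 0.00253 and 5.35e-06). Of 18 genes for initiation and nucleation, 3 rose in both, among them Wipi1, which binds the lipid of the forming membrane (0.79 and 0.61). Rb1cc1, the scaffold of the ULK1 kinase complex, fell with Baf A1 (-0.93) and rose with knockdown (0.65), but against LPS its knockdown value was -0.26. Bnip3, a mitophagy receptor induced by hypoxia, rose with Baf A1 (1.31) and fell with knockdown (-1.41), while siAtg5 and LPS differed by 0.01 (adjusted p = 0.927). The median effects of the 14 cargo receptors were 0.08 with Baf A1 and 0.45 with knockdown, beside 0.04 and 0.34 over all genes.

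Genes of the interferon response fell under both treatments, the program of antiviral genes that LPS induces in macrophages through interferon beta. Of 38 tested interferon-stimulated genes (of 41 listed), 33 fell in both, beside 9.42% of all genes. All 15 interferon-inducible GTPases, which attack vacuoles that hold pathogens, fell in both. The median effects were -0.68 and -0.81 for the interferon-stimulated genes and -1.0 and -1.61 for the GTPases. The first count was 35 after median-of-ratios scaling, 29 after quantile normalization and 35 with LPS as the control of both effects, and the second 15, 15 and 14. Against LPS, siAtg5 lowered 38 of the 38 interferon-stimulated genes.

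Ifnb1, the gene of interferon beta, differed from them in its knockdown direction against LPS+dNC, but not against LPS. It read 3.91, 3.69 and 5.07 FPKM with LPS and 0.9, 1.07, 1.33, 1.04 and 1.08 with Baf A1, then 0.35, 0 and 0.17 with LPS+dNC and 0.75, 0.67, 1.09, 1.27 and 0.77 with siAtg5. Neither pair overlapped, and it fell with Baf A1 (-1.32) and rose with knockdown (0.70, but -0.06 after quantile normalization), while siAtg5 minus LPS was -1.45.

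Slfn4, a Schlafen gene induced by interferon in myeloid cells, led the class. It read 541, 558 and 548 FPKM with LPS and 67.97, 52.5, 66.2, 62.98 and 64.3 with Baf A1. It read 773, 837 and 927 with LPS+dNC and 78.3, 74.7, 69.4, 63.5 and 63.8 with siAtg5. Neither pair of groups overlapped, as was the case in 52.7% of all genes for Baf A1 and LPS and in 77% for siAtg5 and LPS+dNC, and the effects were -3.11 (SE 0.097) and -3.58 (SE 0.097), adjusted p 1.47e-16 and 8.95e-19. Iigp1, an immunity-related GTPase, read 186, 175 and 207 with LPS and 42.9, 37.9, 48.1, 44.99 and 44.4 with Baf A1, then 177, 156 and 192 with LPS+dNC and 46.5, 49.1, 48.5, 52.3 and 37.7 with siAtg5. Neither pair overlapped, the effects were -2.09 and -1.88, and the difference was -0.21 (95% interval -0.49 to 0.07), adjusted p = 0.17, although it was called (-0.28, adjusted p = 0.0388) without LPS+siAtg5 replicate 5.

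Oas2, which makes the activator of RNase L on viral RNA, showed the same pattern. Its levels were 110.1, 112 and 103 with LPS and 28.4, 27.7, 28.8, 28.5 and 29.6 with Baf A1, against 162, 174 and 172 with LPS+dNC and 33.8, 31.7, 33, 31.4 and 30.4 with siAtg5, with no overlap in either pair. The effects were -1.88 and -2.37, and the difference of 0.48 (adjusted p = 7.64e-07) turned to -0.16 with LPS as the control. Rsad2, the antiviral enzyme viperin, fell by 1.85 with Baf A1 and by 2.76 with knockdown; it is named for its promoter, after its values were seen. Slfn8 (-1.38 and -1.22) and Gbp4, a guanylate-binding GTPase (-1.53 and -2.80), fell in both as well. Exceptions were Bst2, the tetherin that holds budding virus (0.23 and -1.21), and Xaf1, which Baf A1 lowered (-0.33) and knockdown raised (0.21), with a knockdown value of -0.11 after median-of-ratios scaling and -0.15 against LPS. Bst2 did not pass with Baf A1 when LPS replicate 1 was left out (0.15, adjusted p = 0.0641) or after quantile normalization (0.10).

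The summed level of border macrophage and monocyte markers was lower in the same comparisons as the interferon genes. Their 12 measured members summed to 781 to 921 FPKM with LPS and 527 to 579 with Baf A1, then 879 to 1046 with LPS+dNC and 579 to 645 with siAtg5. Of the 8 tested members, 2 fell in both (9.42% of all genes did). Baf A1 lowered 3 and raised 1, beside 25.1% and 32.7% of all genes. Knockdown lowered 5 and raised 3, Mrc1 among the latter, beside 21.6% and 59.6% of all genes. Their part in the fall of the interferon genes was not tested.

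The remaining genes with the largest shared fall were of mixed function. Ly6a, the interferon-inducible surface protein Sca-1, had effects of -3.31 and -3.10, with 68.1, 77.03 and 103 FPKM in LPS and 5.58, 6.27, 8.49, 8.2 and 8.66 with Baf A1. Its levels were 133, 113 and 115 with LPS+dNC and 12.7, 13.2, 13.8, 12.7 and 13.1 with siAtg5, again without overlap. Phf11c (-2.31 and -2.10), Trim30b of the tripartite motif family (-1.94 and -2.26), the calmodulin-dependent phosphodiesterase Pde1b (-2.62 and -2.03) and the formin-binding protein gene Fnbp4 (-1.94 and -1.91) followed.

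Some genes of antigen presentation, the inflammasome and cell killing fell in both as well, and others did not. Of 16 tested antigen presentation genes, 10 fell in both (9.42% of all genes did) and 3 rose with Baf A1 and fell with knockdown (5.67% of all genes). Nlrc5, the transactivator of class I genes, fell in both (-0.94 and -1.06), with a difference of 0.12 (95% interval -0.01 to 0.26) that was called at 0.38 after median-of-ratios scaling, at 0.25 after quantile normalization and at 0.41 with LPS as the control. The class Ib gene H2-Q4 fell more with knockdown (-1.76) than with Baf A1 (-0.75). H2-Ab1, the beta chain of a class II molecule, went the other way with Baf A1: 1.71, 2.03 and 2.77 FPKM with LPS, 12.1, 12.3, 10.2, 12.8 and 10.7 with Baf A1, 5.19, 5.5 and 4.83 with LPS+dNC and 1.17, 1.78, 1.11, 1.45 and 1.7 with siAtg5. Neither pair overlapped, and the effects were 2.0 and -1.34. Cd274, the checkpoint ligand PD-L1, read 315, 305 and 334 with LPS and 120, 121, 125, 121 and 124 with Baf A1, 478, 443 and 468 with LPS+dNC and 117, 111, 119.5, 115 and 104 with siAtg5, effects of -1.37 and -2.02. Of 13 tested inflammasome genes, 6 fell in both (9.42% of all genes did), among them Casp4, the caspase that senses cytosolic LPS (-1.19 and -1.76), and the death ligand Tnfsf10 fell in both (-1.39 and -1.92).

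Promoters were read for what the classes share in sequence, since the rule did not use it. RefSeq windows of GRCm38.p6, from 250 bases before to 50 after a start site, matched 8990 of the 11070 tested genes with 11596 promoters. The letters GAAANNGAA, the core of an interferon-stimulated response element, stood on either strand in 7.43% of all promoters and in 16% of those of genes lowered by both (176 of 1097). The share was 5.93% of the promoters of genes raised by both, 6.33% for genes raised by Baf A1 and lowered by knockdown and 5.81% for the reverse class. Where both effects reached 2-fold, 31 of 93 promoters of genes lowered by both held them (33.3%), beside 7 of 83 for genes raised by both (8.43%), 0 of 24 for genes raised by Baf A1 and lowered by knockdown and 0 of 13 for the reverse class. The letters GGANTTTCC of an NF-kB site stood in 1.39% of all promoters, in 2.46% of those of genes lowered by both and in 3.16% of those of genes raised by Baf A1 and lowered by knockdown (20 of 632). The 2 motifs overlap in no printed promoter. A match is a description of letters, not a site in use.

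Shown are the leading gene lowered by both, a gene of that ranking whose window holds the interferon element, and the 2 leading genes raised by Baf A1 and lowered by knockdown. For this choice, windows on a single chromosome were left out and only the first listed window of a gene was read. A higher-ranked gene may therefore hold the element too. Each sequence runs 5′ to 3′ on the gene's strand, with motif matches in capitals. Slfn4 lies at chr11:83174936-83175235 on the plus strand, Rsad2 at chr12:26456403-26456702 on the minus strand, Cxcl3 at chr5:90785851-90786150 on the plus strand and Il1a at chr2:129309923-129310222 on the minus strand.
Slfn4: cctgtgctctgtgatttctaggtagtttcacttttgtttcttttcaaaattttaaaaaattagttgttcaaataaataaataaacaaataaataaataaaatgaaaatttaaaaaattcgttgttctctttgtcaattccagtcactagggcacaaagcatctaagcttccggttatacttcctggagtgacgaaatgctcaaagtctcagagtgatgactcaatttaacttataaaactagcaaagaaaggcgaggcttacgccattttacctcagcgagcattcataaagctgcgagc
Rsad2: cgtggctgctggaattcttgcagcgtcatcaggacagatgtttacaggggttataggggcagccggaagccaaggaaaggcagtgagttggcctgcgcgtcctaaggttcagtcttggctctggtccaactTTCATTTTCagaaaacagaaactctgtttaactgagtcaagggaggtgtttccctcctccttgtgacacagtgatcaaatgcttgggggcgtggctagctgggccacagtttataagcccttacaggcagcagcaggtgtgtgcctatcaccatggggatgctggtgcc
Cxcl3: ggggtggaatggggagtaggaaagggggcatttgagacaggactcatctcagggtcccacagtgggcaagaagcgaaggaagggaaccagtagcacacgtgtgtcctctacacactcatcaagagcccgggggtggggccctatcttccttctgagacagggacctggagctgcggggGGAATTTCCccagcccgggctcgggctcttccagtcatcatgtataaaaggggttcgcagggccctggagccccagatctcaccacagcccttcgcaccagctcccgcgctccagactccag
Il1a: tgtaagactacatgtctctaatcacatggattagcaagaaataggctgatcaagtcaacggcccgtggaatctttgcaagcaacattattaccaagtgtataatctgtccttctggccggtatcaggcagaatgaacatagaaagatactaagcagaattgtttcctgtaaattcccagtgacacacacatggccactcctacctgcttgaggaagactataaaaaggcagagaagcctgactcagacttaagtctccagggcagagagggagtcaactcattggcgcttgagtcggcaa
Rsad2 holds TTCATTTTC, the interferon element read on the opposite strand, with its first base 119 bases before the start site (position -119), and Cxcl3 holds GGAATTTCC at position -72. Slfn4, Phf11c and Il1a show neither motif, which says only that these letters are not in this window.

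**Figure D3:**
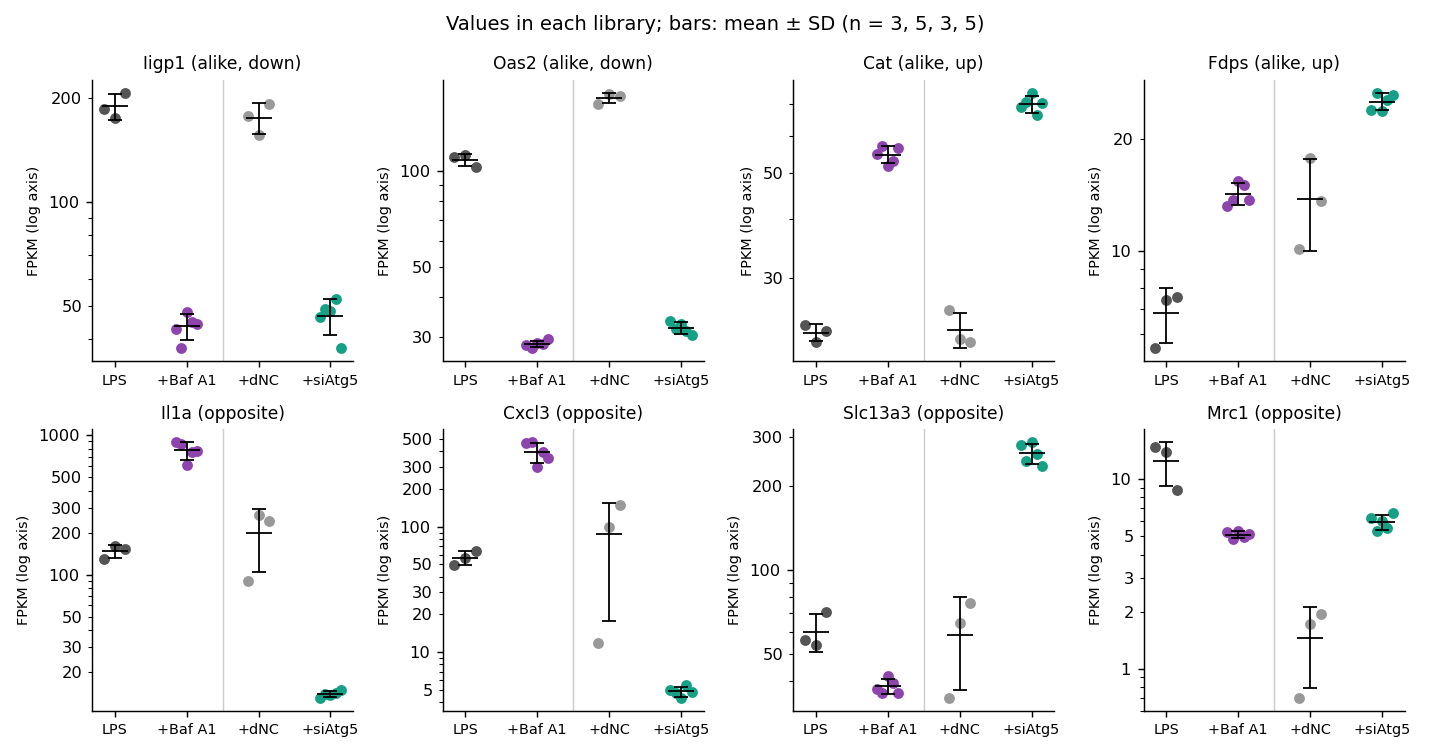
Points are single libraries in FPKM on a log axis, with the mean and SD as bars, for LPS, LPS+Baf A1, LPS+dNC and LPS+siAtg5 (3, 5, 3 and 5 libraries). Iigp1 and Oas2 drop and Cat and Fdps rise under both treatments, Il1a and Cxcl3 rise with Baf A1 and drop with siAtg5, and Slc13a3 and Mrc1 do the reverse, although siAtg5 is below LPS for Mrc1.

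Genes raised by both were led by calcium-binding, matrix and surface proteins. S100a4 and S100a6 encode small calcium-binding proteins of motile cells. S100a4 read 0.41, 0.7 and 1.42 FPKM with LPS and 11.46, 9.7, 9.14, 10.1 and 9.31 with Baf A1, then 2.27, 2.22 and 1.81 with LPS+dNC and 11.8, 13.9, 10.6, 18.7 and 14.4 with siAtg5. Its effects were 2.60 (SE 0.17) and 2.24 (SE 0.17), without overlap in either pair. Lox, the enzyme that crosslinks collagen, read 14.5, 13.2 and 16.8 with LPS and 57.01, 54.2, 53.6, 54.2 and 57.1 with Baf A1, then 9.02, 12.1 and 7.41 with LPS+dNC and 62.6, 59.9, 63.7, 67.8 and 56.03 with siAtg5, effects of 1.83 and 2.61 without overlap in either pair. The tetraspanins Cd81 (1.69 and 2.46) and Cd9 (1.29 and 2.05) and the ubiquitin hydrolase Uchl1 (1.79 and 2.74) rose in both, as did fibronectin, Fn1 (2.13 and 3.86), S100a6 (1.84 and 2.76) and Igfbp7, an insulin-like growth factor binding protein (2.76 and 1.59). Layn, a hyaluronan receptor, and Pgm1, a phosphoglucomutase of glycogen metabolism, rose by 1.67 and 1.73 with Baf A1 and by 1.80 and 1.59 with knockdown, and by less with siAtg5 against LPS (0.52 and 0.58).

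Markers of other cells moved with this group. Fn1 is itself on the list of fibroblast, mural and endothelial markers, whose summed level was 33.5 to 35.7 FPKM with LPS, 50.3 to 63.7 with Baf A1, 11 to 25.3 with LPS+dNC and 162.5 to 214.5 with siAtg5. Of 11 tested members 5 rose in both, beside 21.7% of all genes. Their part in the shared rise was not tested.

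Antioxidant and lipid-making genes rose under both treatments. NRF2 is the transcription factor of the oxidant response, and the autophagy adaptor p62 can free it from its inhibitor. Of 28 tested NRF2 target genes, 17 rose in both, beside 21.7% of all genes, with median effects of 0.73 and 0.96. That count was 16, 17 and 19 under median-of-ratios scaling, quantile normalization and LPS as the control. Cat, the catalase of peroxisomes, read 23.9, 22.01 and 23.1 FPKM with LPS and 55.01, 57.1, 51.8, 53.1 and 56.5 with Baf A1, then 25.7, 22.3 and 21.99 with LPS+dNC and 68.8, 70.6, 74.1, 66.2 and 70.3 with siAtg5. No Baf A1 or siAtg5 library overlapped its control, and the effects were 1.21 (SE 0.054) and 1.55 (SE 0.054). Idh1, which makes NADPH in the cytosol, rose by 1.13 and 2.33, and Me1, the malic enzyme that also makes NADPH, by 1.27 and 2.05. Osgin1 fell in both (-0.80 and -0.41).

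Sterol and fatty acid synthesis rose together. Of 24 tested genes of cholesterol synthesis and its control, 14 rose in both (21.7% of all genes did) and no gene fell in either effect. Baf A1 raised 16 and knockdown 21 (32.7% and 59.6% of all genes, and against LPS 24 of 24), and the shared count was 12 and 10 after the other scalings, with 1 and 2 genes lowered by knockdown there. Fdps, which makes farnesyl pyrophosphate, read 5.51, 7.42 and 7.56 with LPS and 13.2, 13.7, 15.4, 15.1 and 13.8 with Baf A1, then 10.1, 17.8 and 13.6 with LPS+dNC and 23.9, 26.6, 23.7, 25.5 and 26.2 with siAtg5. Its effects were 0.97 and 0.85, with a difference of 0.12 (95% interval -0.26 to 0.50), although against LPS the siAtg5 value was 1.75. Of 26 tested fatty acid genes, 14 rose in both (21.7% of all genes did), among them Acot7, an acyl-CoA thioesterase (1.39 and 1.23). The desaturases Fads1 and Fads2, which make long polyunsaturated fatty acids, were not called with Baf A1 (-0.02 and 0.27, adjusted p 0.914 and 0.437) and rose with knockdown (1.62 and 2.96). Fads2 passed with Baf A1 (0.27, adjusted p = 0.0426) without LPS+dNC replicate 1.

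Ribosomal and respiratory genes rose with Baf A1, and their knockdown direction was mixed. All 28 ribosomal protein genes and 35 of 37 respiratory chain and ATP synthase genes rose with Baf A1, beside 32.7% of all genes. With knockdown, which raised 59.6% and lowered 21.6% of all genes, 17 ribosomal genes rose and 7 fell, and 23 respiratory genes rose and 5 fell (13 up and 10 down, and 14 up and 13 down, after median-of-ratios scaling, and 26 and 37 up against LPS). Atp5a1, a subunit of the ATP synthase, rose alike (0.58 and 0.69), as did Rpsa of the small ribosomal subunit (0.77 and 1.1).

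The stress response of the endoplasmic reticulum moved in both directions, mostly alike under both treatments. Of 32 tested genes, 17 rose in both and 7 fell in both, beside 21.7% and 9.42% of all genes. Pdia4, a disulfide isomerase that folds secreted proteins, read 33.03, 33.8 and 30.8 with LPS and 109.8, 106, 96.97, 106 and 107 with Baf A1, then 17.5, 19.8 and 19.8 with LPS+dNC and 55.8, 54.7, 53.8, 56.4 and 56.6 with siAtg5, effects of 1.67 and 1.5. Psat1, an enzyme of serine synthesis that ATF4 induces, rose by 1.22 and 1.12. Atf4, the transcription factor of the amino acid response, fell in both (-0.49 and -0.85), with 226, 236 and 250.3 in LPS, 164, 171, 168, 170.1 and 169 with Baf A1, 199, 197 and 193 with LPS+dNC and 110, 109, 110.1, 113 and 101 with siAtg5. Trib3, a pseudokinase gene that ATF4 also induces, fell in both (-1.13 and -1.85). Groups did not overlap for Pdia4 or Atf4 in either pair.

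Lysosomal genes moved by small amounts. Of 40 tested hydrolases, membrane proteins and regulators, 14 rose in both (21.7% of all genes did) and 4 fell in both (9.42% of all genes), and knockdown raised 23 (59.6% of all genes) and lowered 8 (21.6% of all genes), or 15 and 17 after median-of-ratios scaling, with median effects of 0.10 and 0.30 beside 0.04 and 0.34 over all genes. Glb1, the lysosomal beta-galactosidase, rose by 0.75 and 1.01, and Ctsd, the aspartic protease cathepsin D, by 0.67 and 1.3. Of 17 tested V-ATPase subunits, the target of Baf A1, 5 rose and 6 fell with the drug, and 4 moved opposite ways in each sense, beside 5.67% and 9.95% of all genes. Those 2 opposite counts were 4 and 0 after median-of-ratios scaling, 1 and 3 after quantile normalization and 1 and 1 with LPS as the control. Tcirg1, an a subunit of the pump, fell in both (-0.70 and -1.25).

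By list median, the difference was most positive in neutrophil chemokines (3.38) and the interleukin-1 family (2.10), beside -0.30 over all genes. Of 8 tested interleukin-1 family genes, 4 rose with Baf A1 and fell with knockdown, beside 5.67% of all genes, and of 5 chemokines that attract neutrophils 3 did (5 and 3 after either scaling, 2 and 2 with LPS as the control). Il1a encodes interleukin-1 alpha, an alarm cytokine. It read 129, 159.8 and 153 FPKM with LPS and 884, 869, 607, 750.5 and 771 with Baf A1. It read 90.1, 266 and 244 with LPS+dNC and 13.03, 13.98, 13.7, 14.1 and 14.98 with siAtg5. Neither pair overlapped, the effects were 2.38 (SE 0.22) and -3.60 (SE 0.22), and the difference was 5.98 (SE 0.31), adjusted p = 1.03e-12. Against LPS the siAtg5 value was -3.30, the same sign as against LPS+dNC.

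Il1b, the gene of interleukin-1 beta, moved the same way in its RNA. Its levels were 884, 970.4 and 1059.6 with LPS and 3742, 3925, 3021, 3528 and 3540.2 with Baf A1, against 389.9, 591 and 509.9 with LPS+dNC and 189, 174, 206, 185 and 231 with siAtg5. Neither pair overlapped, and the effects were 1.87 (SE 0.15) and -1.32 (SE 0.15) (-2.30 against LPS), with a difference of 3.19. Il1rn, the receptor antagonist of this family, fell in both (-0.47 and -3.25). Nlrp3, the sensor of the inflammasome, fell with knockdown (-1.55) and was not called with Baf A1 (-0.11, adjusted p = 0.525).

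Cxcl3, a neutrophil chemokine, was the most divided gene by the class ranking. It read 49.3, 56.8 and 63.5 with LPS and 462, 473, 301, 392.27 and 357 with Baf A1, against 11.8, 100.4 and 148 with LPS+dNC and 4.97, 4.74, 4.3, 5.51 and 4.77 with siAtg5. Neither pair overlapped, although LPS+dNC replicate 1 lay far below the other 2, and the effects were 2.78 (SE 0.46) and -3.31 (SE 0.46). Cxcl2 followed (0.88 and -3.11), as did the cytokine Il6, at 41.9, 46.8 and 54.04 with LPS, 119, 116, 90.5, 111 and 106 with Baf A1, 33.4, 54.5 and 55.6 with LPS+dNC and 5.94, 5.25, 5.56, 6.27 and 6.08 with siAtg5 (effects 1.18 and -2.81, -2.83 against LPS). Csf3, the granulocyte growth factor, rose with Baf A1 (1.64) and fell with knockdown (-3.14, -1.85 against LPS). So did Adora2b, a receptor for adenosine (1.46 and -2.65, -0.92 against LPS), and Clec4e, the receptor Mincle (0.79 and -1.46, -1.32 against LPS).

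For other members of this class siAtg5 was less far below LPS than below LPS+dNC, or above it. Il12b, the shared chain of interleukin-12 and interleukin-23, read 0.39, 0.33 and 0.5 with LPS and 7.29, 6.72, 5.27, 5.8 and 6.4 with Baf A1, then 11.3, 5.57 and 6.69 with LPS+dNC and 0.15, 0.1, 0.13, 0.13 and 0.23 with siAtg5, and against LPS its value was -0.29 (adjusted p = 0.05). Trem1, an amplifier of Toll-like receptor signals, had effects of 2.14 and -2.86 and -0.56 against LPS, and Slc7a2, an arginine transporter, 1.79, -2.44 and -0.62. Cks2, a cell cycle kinase subunit, turned: -1.43 against LPS+dNC and 1.08 against LPS. Ccl9 turned as well (1.17 with Baf A1, -0.76 against LPS+dNC and 0.79 against LPS).

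Most other cytokines fell with knockdown. Of 18 tested other cytokines, knockdown lowered 14 (21.6% of all genes), Baf A1 lowered 6 and raised 6 (25.1% and 32.7% of all genes), and 4 rose with Baf A1 and fell with knockdown (5.67% of all genes). Cxcl10, the interferon-driven T cell chemokine, fell in both (-1.07 and -2.53), as did Ccl7, which attracts monocytes (-1.04 and -2.46), and Il15, which sustains T and natural killer cells (-0.55 and -2.38). Tnf was not called with Baf A1 (0.09, adjusted p = 0.623) and fell with knockdown (-0.67), and Ptgs2, the inducible cyclooxygenase, likewise (0.17, adjusted p = 0.424, and -3.10). Il10, the anti-inflammatory cytokine, read 5.71, 5.98 and 11.2 with LPS and 3.75, 2.25, 3.59, 3.67 and 3.95 with Baf A1, then 106, 89.8 and 106 with LPS+dNC and 26.4, 25.02, 25.02, 28.5 and 22.6 with siAtg5. It fell in both (-0.92 and -1.94), but siAtg5 was higher than LPS by 1.67, and the LPS+dNC libraries lay above all others.

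Arginine and itaconate metabolism, which marks activated macrophages, was divided too. Nos2, the inducible nitric oxide synthase, read 169.6, 169 and 222 with LPS and 211, 238, 219, 225 and 237 with Baf A1, then 540, 490.3 and 583 with LPS+dNC and 16.1, 19.2, 16.7, 17.4 and 13.9 with siAtg5. Baf A1 and LPS overlapped (effect 0.28, adjusted p = 0.142, but 0.0176 in a fit of the 16 libraries of the 4 groups, and an effect of 0.39 with library weights, adjusted p = 0.000488), while the knockdown effect was -4.93 (-3.41 against LPS), a difference of 5.22 (SE 0.23). Acod1, which makes itaconate, rose with Baf A1 (0.59) and fell with knockdown (-1.55, -1.01 against LPS). Slc13a3, a dicarboxylate transporter, did the reverse: 56.05, 53.6 and 70.6 with LPS and 37.6, 36.2, 41.6, 39.3 and 36.3 with Baf A1, 34.7, 64.6 and 76.1 with LPS+dNC and 279, 244, 286, 261 and 235 with siAtg5. Its effects were -0.63 and 2.21, and 2.11 against LPS, but Baf A1 did not pass when LPS replicate 3 was left out (-0.51, adjusted p = 0.06). Arg1, the arginase that competes for the same substrate, read 0.92, 15.1 and 21.7 with LPS+dNC and 2.38, 2.45, 1.41, 2.47 and 2.43 with siAtg5, groups that overlapped, and its knockdown call (-1.47, adjusted p = 0.00841) was lost without LPS+dNC replicate 2 (-1.05, adjusted p = 0.0716) or 3 (-0.80, adjusted p = 0.117).

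Glycolysis and hypoxia genes rose with Baf A1, and their knockdown direction turned with the control. Of 33 tested genes, Baf A1 raised 26 (32.7% of all genes) and lowered none, with a median of 1.0. Knockdown raised 8 and lowered 14 against LPS+dNC, beside 59.6% and 21.6% of all genes. Against LPS it raised 18 and lowered 7, beside 61.2% and 15.6% of all genes. The class raised by Baf A1 and lowered by knockdown held 12 of them (5.67% of all genes), 18 and 14 after the other scalings and 5 with LPS as the control, where 15 rose in both. Mif, a cytokine that hypoxia induces, read 106, 111 and 142 with LPS and 285, 282, 261, 262 and 264 with Baf A1, then 244, 278 and 287 with LPS+dNC and 86.1, 88.2, 87.1, 82.01 and 92.5 with siAtg5. Its effects were 1.19 and -1.61, and -0.44 against LPS. Eno1, the glycolytic enolase, gave 1.18, -0.86 and -0.20. Adm, the peptide adrenomedullin (1.00 and 1.53), and Pfkp, a phosphofructokinase (0.71 and 0.80), rose in both. Hp, the haemoglobin scavenger haptoglobin, rose with Baf A1 (2.27) and fell with knockdown (-1.17), but not against LPS (0.27, adjusted p = 0.162).

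Genes lowered by Baf A1 and raised by knockdown included surface receptors of microglia and macrophages, with median effects of -0.38 and 0.57. Mrc1, the mannose receptor, read 14.7, 13.8 and 8.77 FPKM with LPS and 5.23, 4.84, 5.35, 4.97 and 5.11 with Baf A1, then 0.7, 1.71 and 1.94 with LPS+dNC and 6.23, 5.31, 5.99, 5.49 and 6.59 with siAtg5. Neither pair overlapped (-1.11 and 1.53), yet siAtg5 minus LPS was -0.93. The same held for Cd22, an inhibitory lectin (-1.60, 1.54 and -0.44 against LPS), Arhgap19 (-1.46, 1.53 and -0.43), Pltp, a lipid transfer protein and LXR target (-1.33, 0.57 and -1.30), and Evi2b (-1.03, 2.67 and -0.52). Slc9a9, an endosomal sodium-proton exchanger, had -0.96, 1.97 and -0.19 (adjusted p = 0.266), and for Cd22, Mrc1, Arhgap19, Evi2b and Slc9a9 the LPS+dNC libraries lay below those of the other 3 groups. Epb41l1, a membrane skeleton protein (-1.04, 1.28 and 0.43), and Tpr of the nuclear pore (-0.98, 1.11 and 0.20) kept their direction.

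Apoe, the lipid carrier, is an abundant member of this class. It read 6718, 6789 and 7243 FPKM with LPS and 3597, 3720, 3715, 3677 and 3589 with Baf A1, then 5228, 6366 and 6286 with LPS+dNC and 7665, 7598, 7798, 7486 and 7750.3 with siAtg5. The Baf A1 libraries lay below all others (-0.92), and the rise with knockdown (0.37) was not called after median-of-ratios scaling (0.04) or against LPS (0.15, adjusted p = 0.15). Pparg, the nuclear receptor of lipid genes, was not called with Baf A1 (-0.36, adjusted p = 0.22) and rose with knockdown (1.44).

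Astrocyte and neuron markers rose with knockdown. Gfap, the astrocyte filament protein, read 1.42, 1.83 and 2.89 with LPS and 1.05, 0.81, 0.64, 1.08 and 0.92 with Baf A1, then 0.17, 3.99 and 2.27 with LPS+dNC and 124, 134, 114, 132 and 126 with siAtg5. The Baf A1 libraries lay below the LPS libraries and the siAtg5 libraries above all others, the effects were -0.66 (adjusted p = 0.0561) and 5.57, and Aqp4, the astrocyte water channel, gave -0.44 and 5.36. The Gfap Baf A1 value passed without LPS replicate 1 (-0.81, adjusted p = 0.0493), without LPS+dNC replicate 1 (-0.66, adjusted p = 0.00117) and without LPS+dNC replicate 2 (-0.66, adjusted p = 0.0157). All 13 tested astrocyte markers and all 9 tested neuron markers rose with knockdown, beside 59.6% of all genes. A marker could pass the filter through the siAtg5 libraries alone, so the filter may partly set these counts, and they are no separate support for the rise. The sums that follow cover all measured members, tested or not. The sum of the 15 astrocyte markers was 14.1 to 21.8 FPKM with LPS, 23.2 to 30.1 with Baf A1, 12.5 to 46.7 with LPS+dNC and 447.4 to 533.5 with siAtg5. Ntsr2 was at 0 in all LPS and all Baf A1 libraries, Gjb6 in all LPS and all LPS+dNC libraries, and no astrocyte marker in all siAtg5 libraries. Neuron markers summed to 15.4 to 19.3, 8.7 to 13.3, 2.0 to 16.3 and 64.9 to 82.4, with Dcx, a protein of young neurons, at -0.89 and 2.99. Fgf2, a growth factor of glia and stromal cells, also fell with Baf A1 and rose with knockdown (-0.25 and 3.12), although not with Baf A1 when LPS replicate 2 was left out (-0.17, adjusted p = 0.0762), and Gja1, the gap junction protein of astrocytes, rose in both (1.48 and 2.30). The 3 measured neutrophil and lymphocyte markers, of 13 listed, went the other way in sum but not 1 by 1. Of the 2 that were tested, knockdown raised Camp and lowered S100a8. The 3 summed to 129.5 to 632.9 FPKM with LPS+dNC and 22.66 to 34.63 with siAtg5, against 7.08 to 14.03 with LPS. The part of any of these cells in the knockdown effect was not tested.

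**Figure D4:**
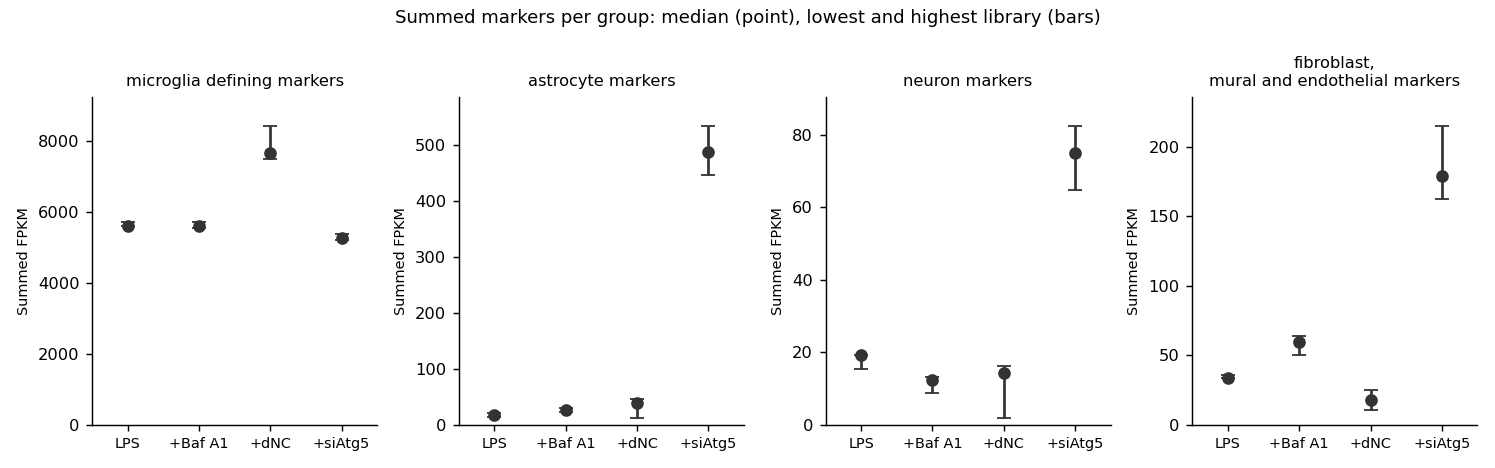
Summed FPKM of 4 marker lists in each group, as the median (point) with the lowest and highest library (bars), each axis starting at 0. The 12 microglia markers sum to 5229 to 5377 with siAtg5, 5542 to 5720 with Baf A1 and 7509 to 8421 with LPS+dNC, while astrocyte markers reach 447.4 to 533.5 with siAtg5 and at most 46.7 in the other groups.

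None of the 12 defining markers of microglia was at 0 in all libraries of a group, and their sum was 5607 to 5726 FPKM with LPS. These values do not measure purity. Of the 12, 5 rose in both and 3 fell with Baf A1 and rose with knockdown, beside 21.7% and 9.95% of all genes.

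**Figure D5:**
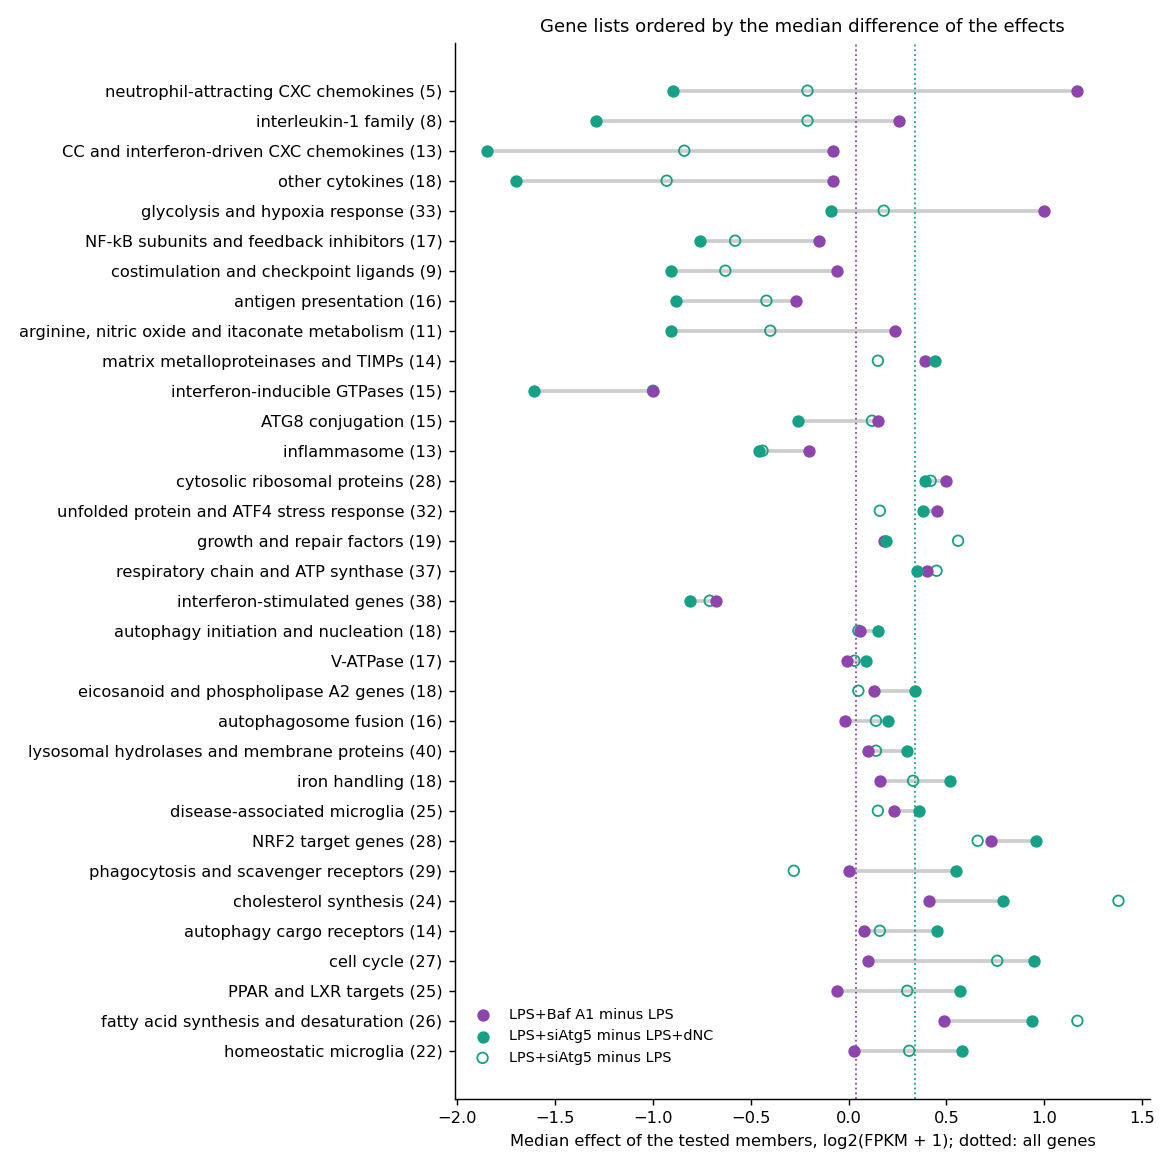
Each row is a gene list, with the number of tested members in brackets, and points give the median effect of its members for Baf A1 (purple), for knockdown against LPS+dNC (filled green) and against LPS (open green), with dotted lines at the medians of all genes (0.04 and 0.34). Interferon lists lie left for both treatments, NRF2 and cholesterol lists lie right for both, and the neutrophil chemokine list lies at 1.17 and -0.9, while the glycolysis list lies at -0.09 or 0.18 for knockdown depending on the control.

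Several named genes share sequence with others, so their values are uncertain where counting could split reads between copies. Of the 50-base stretches in their annotated transcripts, 98.6% also occur in another gene for Evi2b, 47.4% for S100a4, 34.1% for Mif, 32.4% for Ctsd, 29.7% for Cks2, 28.7% for Rpsa, 26.2% for Fdps, 26% for Eno1, 22.9% for Me1, 21.8% for H2-Q4 and 19% for Ly6a. Slfn4 (10.8%), Phf11c (10.9%), Slfn8 (14.6%), Bnip3 (16.5%), Gbp4 (7.7%), Cxcl2 (5.84%) and Cd9 (5.67%) are touched less.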

How the data were processed

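Bulk RNA-seq of 22 libraries was deposited as 1 table of FPKM values per gene, which the authors made with fastp 0.18.0, Bowtie2 2.2.8, HISAT2 and StringTie 1.3.1, per the submitters' processing notes (CASAVA 1.7 is named as well). The sources used here do not give the build. For the 3 LPS+dNC columns the header has no unit; they were read as FPKM, and all deposited FPKM values were used without rescaling.

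Values were set to log2(FPKM + 1). The 11070 genes that reached 1 FPKM in 3 or more libraries were fitted in limma 3.58.1 (R 4.3.3; group means over 22 libraries, trend and robust variance, 17 residual degrees of freedom), with Benjamini-Hochberg adjustment over all of them and a threshold of 0.05. In a test on simulated data with 200 of 11070 genes changed, 96% were recovered at a log2 change of 1 and 100% at 2. Of the unchanged genes, 10 were called. The simulated noise was independent, without the outlying libraries or the broad shifts of these data, so these rates may not hold here. Replicate numbers did not pair libraries (correlations of deviations from -0.035 to 0.091).

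Named genes were Atg5, Il1b, Il1a, Tnf, Il10, Nos2, Arg1, Pparg, Fads1, Fads2 and Gfap; in each class the 8 genes with the largest smaller effect, at least 5 FPKM in a group and no overlap of libraries, without predicted genes (and called in the difference in the opposite classes); and, from every list, at most 2 genes a class by adjusted p and 1 per direction called in the difference and in 1 effect. Rsad2 was added for its promoter. Some genes that this rule names are not reported here. Members and lists were chosen with earlier results of these data known. Alternatives were another pseudocount, filter, scaling, control and fit, and leaving out each library.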

Additional observations from a re-analysis of the deposited data

Results flagged for a closer look

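In 8 of 194 groups examined (97 named genes, LPS+Baf A1 and LPS+siAtg5 only, since groups of 3 were not examined), 1 library lay far from the other 4 relative to the range of its group. Chance marks about 1 in 20 groups this way. With Baf A1, Il10 read 2.25 FPKM in replicate 2 against 3.59 to 3.95 in the others. Slfn8 read 76.78 in the same replicate against 84.47 to 85.22, and Pdia4 read 96.97 in replicate 3 against 106.39 to 109.81. With siAtg5, Arg1 read 1.41 in replicate 3 against 2.38 to 2.47, and Trim30b read 7.81 in replicate 2 against 6.32 to 6.5. In siAtg5 replicate 5, Slc9a9 read 8.19 against 6.22 to 6.57, Clec4e read 233.44 against 207.25 to 212.62, and Rsad2 read 205.38 against 253.38 to 270.96. None of these libraries crossed into the range of its control group for Il10, Slfn8, Pdia4, Trim30b, Clec4e, Slc9a9 or Rsad2, while the Arg1 groups overlapped.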

How the results depend on the processing

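Counts depended on the fold required, the scaling and the control. After median-of-ratios scaling, knockdown lowered 3981 genes, the difference was higher in 3439, 1556 genes rose in both and 1723 fell in both. After quantile normalization, knockdown raised 4206 and lowered 4362, the difference was higher in 3859 and lower in 3692, 1764 fell in both and 977 rose with Baf A1 and fell with knockdown. With LPS as control of both effects, which then share libraries, the opposite classes held 178 and 642 genes, and 123 and 500 were called the same way against both controls. That last count, and leaving out the 234 genes in which LPS+dNC lies apart, were chosen after seeing the data. With a 2-fold change also required, Baf A1 called 446 (223 higher, 223 lower), knockdown 2564 (2034 and 530), the difference 2524 (557 and 1967), and the classes held 73, 93, 27 and 9. Leaving out 1 library gave 5662 to 6649 Baf A1 calls (3238 to 3763 higher, 2397 to 3001 lower), 8672 to 9130 knockdown calls (6358 to 6672, 2247 to 2458), 7706 to 8195 for the difference (2134 to 2292, 5508 to 5903), and classes of 2209 to 2452, 980 to 1042, 531 to 653 and 873 to 1335. With the replicate number as a block, although the numbers did not pair the libraries (1 of 3 LPS and 1 of 3 LPS+dNC libraries correlated best with their own number), the calls were 6031, 8761 and 7932 and the classes 2157, 985, 594 and 1000. The causes were not tested.

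Of 8615 values of named genes under alternatives, 32 changed sign, 145 lost a call and 55 gained one. With library weights the Baf A1 effect was called for Tnf (0.20), Ptgs2 (0.25) and Nlrp3 (-0.21), with limma adjusted p of 0.0141, 0.0134 and 0.0155. With LPS as the control, the knockdown effect became 1.67 for Il10, 1.08 for Cks2, -0.44 for Cd22, -0.43 for Arhgap19, -0.93 for Mrc1, -0.52 for Evi2b, -0.19 for Slc9a9, -0.15 for Xaf1, -0.26 for Rb1cc1, 0.01 for Bnip3, 0.27 for Hp, 0.79 for Ccl9, -1.30 for Pltp and -1.45 for Ifnb1. The difference became -2.59 for Il10, -0.43 for S100a4, 1.15 for Layn, -0.15 for Slfn4, -0.42 for Trim30b, -0.16 for Oas2, -0.78 for Fdps, -0.34 for Acot7, -0.61 for Wipi1, 0.22 for Glb1 and 0.13 for Ifnb1. Median-of-ratios scaling gave a knockdown value of -0.11 for Xaf1 and differences of 0.22 for Fnbp4 and 0.16 for Atp5a1. Quantile normalization gave a knockdown value of -0.06 for Ifnb1 and differences of 0.64 for Phf11c and 0.22 for Fnbp4, and a pseudocount of 5 gave 0.27 for Layn. FPKM values carry no depth, so the precision of low values is unknown.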
